A study of Rattus norvegicus with 36 samples.

Results

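The early kidney response to ischemia was set against the early response to cisplatin, both at 2 h, in 14 arrays of 12 rats out of 36 arrays of 31 rats in the series. The arrays were chosen by their labels. Ischemia rats (4 rats, 4 arrays) had both kidneys without blood flow for 40 min and were harvested after 2 h of reperfusion. Cisplatin rats (3 rats, 3 arrays) received 20 mg/kg of the drug into the abdomen and were harvested after 2 h. The untreated normal rats were numbered 1 to 3 (3 rats, 4 arrays) and 11 and 12 (2 rats, 3 arrays). All were male rats of 6 to 8 weeks, whose strain is not given in the labels, and RNA came from minced whole kidney tissue and was hybridised to 1-colour CodeLink oligonucleotide arrays. Beside them stand 3 ischemia rats given 50 µg alpha melanocyte stimulating hormone (αMSH) intravenously and 3 rats given 4 mg/kg mercuric chloride under the skin, both at 2 h, and 3 rats harvested 8 h after a 40 min sham operation. The fit over all 31 rats also holds ischemia and mercuric chloride rats at 8 h and rats with volume depletion by furosemide and a diet low in sodium, whose values are not reported. The series title asks how ischemic and nephrotoxic renal failure differ early on. The ischemia rats had surgery and the cisplatin rats an injection, and no sham-operated or vehicle-injected group at 2 h was used here.

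Ischemia deprives the tubule of oxygen and ATP, and the return of blood brings oxidative stress, protein misfolding and inflammatory signalling. Cisplatin enters the proximal tubule through organic cation and copper transporters, forms adducts with DNA and glutathione, and kills tubule cells over days, with p53 among the pathways it engages. Both insults are used as rodent models of acute kidney failure.

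Levels are given as multiples of the array median, with a floor of 0.1, and each change is a log2 difference given with its SE. Each arm was set against the normal rats of its own array lot, ischemia against normal rats 1 to 3 and cisplatin against normal rats 11 and 12. The difference of changes is the ischemia change minus the cisplatin change, so a positive value means a higher change after ischemia. Genes were called at an adjusted p under 0.05 in limma with Benjamini-Hochberg adjustment over 9084 probes. Adjusted p-values below come from that fit unless levels are compared directly or a rat is left out. Direct comparisons come from a fit that holds all normal rats as 1 group. Values with a rat left out come from a refit without that rat. Nothing in the labels says whether rats of 1 group were treated or processed apart, so the p-values measure the spread between these rats.

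The lots could be read from missing spots. A set of 47 probes was missing on all arrays of normal rats 11 and 12 and on none of normal rats 1 to 3. All 47 were missing on each cisplatin array and 0 on each ischemia array. The normal rats of the lots differed from each other in 581 probes (6.40% of those tested), and array lot and rat cannot be told apart in that difference. Among treated rats, cisplatin rat 1 stood apart from cisplatin rats 2 and 3 in the immediate early genes, so rats are given singly where it departs from the others. Kidney markers were present in all groups: the summed level of 33 measured proximal tubule genes lay between 780 and 901 array medians in ischemia rats, 844 to 948 in cisplatin rats, 858 to 1268 in normal rats 1 to 3 and 857 to 869 in normal rats 11 and 12. The sum of 11 measured of 18 fibroblast and smooth muscle markers was 48.0 to 53.6 in ischemia rats, 39.1 to 40.3 in cisplatin rats, 33.1 to 38.6 in normal rats 1 to 3 and 29.8 to 31.9 in normal rats 11 and 12, so it moved with treatment and lot, and its part in the results was not tested. That of 13 of 19 endothelial markers was 28.0 to 32.0 in ischemia rats, 29.6 to 33.8 in cisplatin rats and 29.4 to 30.5 in all normal rats.

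More probes were called after ischemia than after cisplatin, each within its own lot. After ischemia 1385 probes were called (15.2%), 693 higher (7.63%) and 692 lower (7.62%). After cisplatin 55 probes were called (0.605%), 51 higher (0.561%) and 4 lower (0.044%). The cisplatin arm had 5 rats against 7 in the ischemia arm, and the median SE of a change was 0.20 after cisplatin and 0.16 after ischemia. At an unadjusted p under 0.05, 557 of 9084 probes passed after cisplatin. Probes with no change pass that threshold at a share of 0.05, so this count is not a count of changed probes. The cisplatin count depended on which rats were held: it was 139 without cisplatin rat 1, 13 without cisplatin rat 2, 28 without cisplatin rat 3, 34 without normal rat 11, 13 without normal rat 12 and 21 in a fit of the 12 rats alone. The difference of changes was called for 206 probes (2.27%), 142 with a higher change after ischemia (1.56%) and 64 with a lower one (0.705%). The median over all probes was −0.08 for the difference, −0.07 after ischemia and 0.02 after cisplatin. Counts of list members below are to be set beside the shares of all probes given here.

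Most of the probes called after cisplatin were also called after ischemia. Of the 55 probes called after cisplatin, 43 were also called after ischemia in the same direction, 78.2% of the cisplatin calls and 3.10% of the ischemia calls, and 1 was called in the opposite direction. The arms share no rats. All 142 probes with a higher change after ischemia had risen after ischemia, and 5 of them had also risen after cisplatin. Of the 64 with a lower change, 55 had fallen after ischemia and 6 had risen after cisplatin. The difference holds the ischemia change itself, from the same ischemia and normal rats, so much of this overlap is built in. Of the 272 probes that rose at least 2-fold after ischemia, 167 were not called in the difference. By named genes, 95 had a higher and 37 a lower change after ischemia. With ischemia and cisplatin levels compared directly, 196 of the 206 probes were called in the same direction. The normal rats do not enter that estimate, but as 1 group they enter its spread. That comparison shares all 7 treated rats with the difference of changes and called 2394 probes in all, 1039 higher and 1355 lower in ischemia. Lot and insult cannot be told apart in it. With normal rat 11 or 12 left out, 110 and 95 probes were called. Of 56 called genes in the lists and rankings used here, 31 were still called without normal rat 11 and 32 without normal rat 12, and 0 turned their direction. Genes called with any 1 of the 12 rats left out included Chac1, Itpkc, Cgn, Lifr, Plaur, Klf4, Edn1, Fgl2, Hspa1a, Dusp5, Dusp14, Srxn1 and Ccl20. Also among them were Pvr, Csrp3, Pim1, Hk2, Tppp3, Mthfd2, Hspa5, Ankrd37, Cryab, Purg, Tob2 and Shprh. Of 28 such genes called after cisplatin, 8 were still called without normal rat 12, 13 without normal rat 11, 10 without cisplatin rat 2, 14 without cisplatin rat 3 and 26 without cisplatin rat 1. Those called with any 1 rat left out were Hspa1a, Klf10, Dusp8, Slc25a25, Tob2, Zfp36, Cebpd and Gadd45a, while the highest adjusted p over the rats left out was 0.078 for Cdkn1a, 0.45 for Fos, 0.35 for Btg2, 0.34 for Gdf15, 0.28 for Dnajb9, 0.53 for Hmox1 and 0.61 for Shprh.

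**Figure D1:**
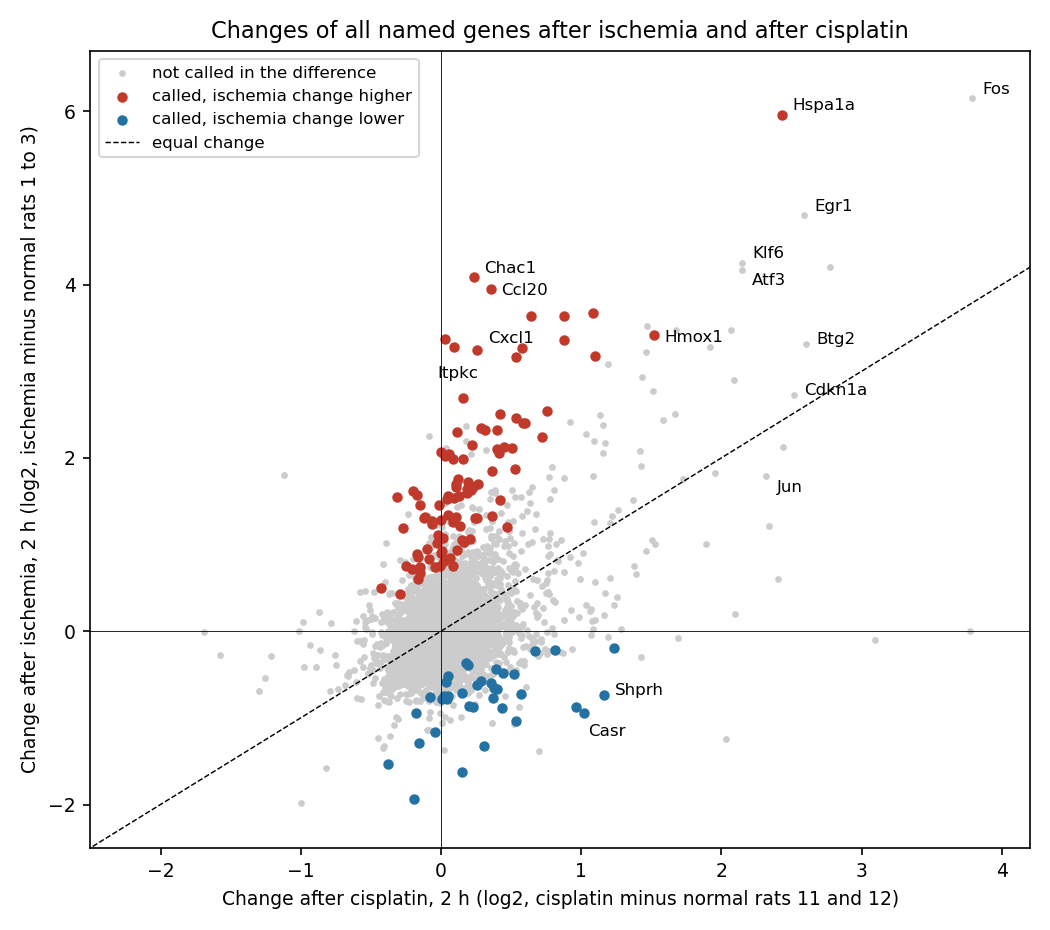
Change of each named gene after cisplatin (horizontal axis, log2) against its change after ischemia (vertical axis, log2). Red and blue points are the 95 and 37 genes called higher and lower in the difference of changes, grey points are the other genes, and the dashed line marks equal change; most coloured points lie above or below 0 on the ischemia axis and near 0 on the cisplatin axis.

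The integrated stress and unfolded protein responses, which slow translation and raise chaperones and amino acid synthesis, had called differences between the insults. Of 14 measured genes, 7 rose after ischemia and 2 after cisplatin, and 4 had a higher change after ischemia. Over all probes those shares were 7.63%, 0.561% and 1.56%. The list median was 0.45 after ischemia, 0.08 after cisplatin and 0.31 in the difference. Chac1, an enzyme that degrades glutathione and a target of the stress factor ATF4, had the largest difference of any named gene. It lay at 3.08, 2.26, 3.43 and 4.21 in ischemia rats, against 0.221, 0.213 and 0.243 in cisplatin rats. It lay at 0.213, 0.194 and 0.158 in normal rats 1 to 3 and at 0.185 and 0.198 in normal rats 11 and 12. All ischemia rats lay above all other rats, and cisplatin rats lay at or above the top of the normal range. The difference of changes was 3.85 ± 0.28 (adjusted p = 3.4e-09), 14.4-fold, and without any 1 rat it stayed between 3.72 and 4.01.

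The Chac1 promoter is shown because its gene led the list. It spans chr3:126795881-126796180 on the plus strand of the RefSeq rat assembly GRCr8, from 250 bases before to 50 after the annotated start. Capitals mark a match, on the opposite strand, to TGATGNAA, the core of the element that ATF4 binds with its partners, at bases −167 to −160 from the start.
Chac1: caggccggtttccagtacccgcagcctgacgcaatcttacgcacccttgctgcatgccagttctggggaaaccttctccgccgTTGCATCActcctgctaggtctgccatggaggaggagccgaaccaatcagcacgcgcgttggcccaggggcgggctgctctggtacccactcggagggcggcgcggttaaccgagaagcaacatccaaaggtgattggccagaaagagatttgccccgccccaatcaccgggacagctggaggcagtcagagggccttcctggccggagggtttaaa
Such a match was in 4 of 82 promoters of genes with a higher change after ischemia (4.88%), those of Cars1, Chac1, Herpud1 and Jdp2, in 0 of 29 of genes that rose after cisplatin, in 2.02% of 4897 measured genes and in 3.82% of all 27457 RefSeq promoters. A match is a run of letters and does not show binding.

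Some other members of the list rose in smaller steps, and the rest were not called after ischemia. Mthfd2, a mitochondrial folate enzyme, lay at 0.407 to 0.469 in ischemia rats, against 0.120 to 0.183 in cisplatin rats, with a difference of 1.64 ± 0.33 (adjusted p = 0.0050). Hspa5, the main chaperone of the endoplasmic reticulum, lay at 71.0, 67.8, 77.5 and 79.9 in ischemia rats, against 22.0, 26.6 and 37.0 in cisplatin rats. Its normal rats lay at 21.9, 29.5 and 25.8 in the first lot and 29.6 and 23.0 in the second, and the difference was 1.44 ± 0.27 (adjusted p = 0.0027). Herpud1, which serves degradation of misfolded proteins, had a difference of 0.96 ± 0.25 (adjusted p = 0.034). Ppp1r15a, the phosphatase subunit that ends the translation block, rose in both arms, by 2.77 ± 0.26 after ischemia and 1.51 ± 0.31 after cisplatin (adjusted p = 0.015). Dnajb9, a chaperone of the same compartment, rose by 1.40 ± 0.22 after ischemia and 1.26 ± 0.26 after cisplatin (adjusted p = 0.021). For these last 2 genes the difference was not called. Asns, asparagine synthetase, was called in neither arm, at 0.06 after ischemia and 0.06 after cisplatin. Its difference was −0.004 and was not called.

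Heat shock genes rose after ischemia, 7 of 10 measured, and Hspa1a, the inducible cytosolic HSP70, was the 1 member that also rose after cisplatin. Hspa1a lay at 91.4, 88.7, 99.6 and 97.0 in ischemia rats, against 3.24, 9.14 and 7.97 in cisplatin rats. Normal rats 1 to 3 lay at 1.28, 1.63 and 1.64 and normal rats 11 and 12 at 1.13 and 1.15. The 3 groups formed separate bands, ischemia on top, cisplatin in the middle and all normal rats below. The rise was 5.96 ± 0.32 after ischemia (adjusted p = 1.0e-12) and 2.44 ± 0.39 after cisplatin (adjusted p = 0.0013), and the difference was 3.53 ± 0.50 (adjusted p = 0.00013). Cryab, a small heat shock protein, had a difference of 1.44 ± 0.28 (adjusted p = 0.0038) and Hspd1, the mitochondrial chaperonin, one of 0.77 ± 0.17 (adjusted p = 0.013). Bag3, a co-chaperone of HSP70, rose by 2.05 after ischemia (adjusted p = 0.0015), and its difference of 1.83 ± 0.68 was not called (adjusted p = 0.21).

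The oxidative stress list moved through a few genes only. Of 22 measured, 4 rose after ischemia, 1 after cisplatin, and 2 had a higher change after ischemia, against 7.63%, 0.561% and 1.56% of all probes. The list median was −0.03 after ischemia and 0.10 after cisplatin. Srxn1, sulfiredoxin, which repairs oxidised peroxiredoxins, lay at 6.89, 6.90, 3.80 and 8.96 in ischemia rats and 0.809, 1.19 and 0.775 in cisplatin rats. Its normal rats lay between 0.440 and 0.592 in the first lot and at 0.558 and 0.327 in the second. Every ischemia rat lay above every cisplatin rat, and the difference was 2.59 ± 0.42 (adjusted p = 0.00058). Hmox1, heme oxygenase 1, lay at 7.44, 7.10, 13.2 and 10.6 in ischemia rats and 1.55, 2.68 and 2.17 in cisplatin rats, against 0.904, 0.894 and 0.814 in normal rats 1 to 3 and 0.826 and 0.636 in normal rats 11 and 12. It rose in both arms, by 3.41 ± 0.27 after ischemia and 1.52 ± 0.33 after cisplatin (adjusted p = 0.025), with a difference of 1.89 ± 0.43 (adjusted p = 0.014). Gclc, the rate-limiting catalytic subunit of glutathione synthesis, was not called in either arm or in the difference: it changed by −0.11 after ischemia and 0.08 after cisplatin, and the difference had a 95% interval of −0.77 to 0.39.

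Inflammatory mediators rose after ischemia, with a single rise after cisplatin. Of 23 measured cytokines and chemokines, 11 rose and 1 fell after ischemia, 1 rose after cisplatin, and 5 had a higher change after ischemia. The list median was 0.56 after ischemia, 0.15 after cisplatin and 0.44 in the difference. Ccl20, the ligand of CCR6 that draws lymphocytes and dendritic cells, lay at 2.44, 2.26, 4.54 and 2.64 in ischemia rats, against 0.416, 0.271 and 0.360 in cisplatin rats. Normal rats 1 to 3 lay at 0.142, 0.170 and 0.257, and normal rats 11 and 12 at 0.345 and 0.208. Ischemia rats lay above all others and cisplatin rats overlapped normal rats 11 and 12, and the difference was 3.60 ± 0.65 (adjusted p = 0.0018).

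Cxcl1, which draws neutrophils, lay at 1.42, 2.13, 5.15 and 1.52 in ischemia rats and at 0.232, 0.231 and 0.208 in cisplatin rats. Normal rats lay between 0.193 and 0.294 in the first lot and at 0.185 and 0.189 in the second. Ischemia rat 3 was the highest of its group for Cxcl1, Ccl20 and Il6, and the Cxcl1 difference was 2.99 ± 0.68 (adjusted p = 0.015). Il6, the acute phase cytokine, lay at 0.775, 1.11, 2.32 and 0.667 in ischemia rats, against 0.230, 0.189 and 0.205 in cisplatin rats and 0.158 to 0.187 in all normal rats. Its difference was 2.54 ± 0.56 (adjusted p = 0.011). Cxcl2, a relative of Cxcl1, and Il24, a cytokine of the IL-10 family, had differences of 1.64 ± 0.34 (adjusted p = 0.0066) and 1.40 ± 0.31 (adjusted p = 0.013). Ccl2, the monocyte chemokine, rose by 2.25 after ischemia (adjusted p = 0.0098), and its difference of 2.34 ± 0.93 was not called (adjusted p = 0.28). Gdf15, a stress cytokine, was the list's 1 rise after cisplatin, 1.47 ± 0.33 (adjusted p = 0.034), and it lay at 1.48, 1.78 and 2.67 in cisplatin rats, against 0.660 and 0.731 in normal rats 11 and 12 and 1.44, 2.23 and 2.62 in normal rats 1 to 3.

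The Cxcl1 and Il6 promoters are shown because both hold a match to the NF-kB site in this window. They span chr14:17479272-17479571 and chr4:5894526-5894825, both on the minus strand of GRCr8. Capitals mark the match, which in Cxcl1 is a pair of overlapping matches, at bases −84 to −74 from the start in Cxcl1 and −68 to −59 in Il6.
Cxcl1: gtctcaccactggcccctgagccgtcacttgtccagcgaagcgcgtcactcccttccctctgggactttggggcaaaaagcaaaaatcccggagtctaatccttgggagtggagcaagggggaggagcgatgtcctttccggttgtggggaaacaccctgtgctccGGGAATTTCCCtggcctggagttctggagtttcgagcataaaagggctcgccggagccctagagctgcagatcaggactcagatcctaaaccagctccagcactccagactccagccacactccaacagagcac
Il6: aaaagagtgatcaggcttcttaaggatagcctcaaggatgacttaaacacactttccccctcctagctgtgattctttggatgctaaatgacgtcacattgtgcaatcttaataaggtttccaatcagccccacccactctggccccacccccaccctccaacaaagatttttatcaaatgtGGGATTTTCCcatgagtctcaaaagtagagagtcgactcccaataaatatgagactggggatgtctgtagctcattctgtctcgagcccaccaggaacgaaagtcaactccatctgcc
Of the 82 promoters of genes with a higher change after ischemia, 11 held such a match (13.4%), against 2 of 29 for genes that rose after cisplatin (6.90%), 5.04% of 4897 measured genes and 4.16% of all RefSeq promoters. The 11 included Ccl20, Cxcl1, Cxcl2, Il6 and Itpkc. The Il6 window also holds TGACGTCA, the cyclic AMP response element, at bases −162 to −155. That element was in 4 of the 29 promoters of genes that rose after cisplatin (13.8%), those of Btg2, Ier2, Ppp1r15a and Slc25a25, and in 4 of the 82 (4.88%), against 2.94% of measured genes. The heat shock motif GAANNTTC was in 3 of the 82 (3.66%) and 5.37% of measured genes. The AP-1 motif TGANTCA was in 8 of the 82 (9.76%) and 4.80% of measured genes, and the serum response box in 4 of the 82 (4.88%) and 1.31% of measured genes. Both strands were searched, and the shares are descriptions with no test.

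Receptors of the IL-6 family and genes of STAT3 signalling differed between the insults in a few members. Lifr, the receptor of leukemia inhibitory factor, lay at 0.743, 0.788, 0.796 and 0.687 in ischemia rats, against 0.201, 0.227 and 0.176 in cisplatin rats and 0.169 to 0.209 in all normal rats. The ischemia rats lay in a narrow band above all others, and the difference was 1.99 ± 0.21 (adjusted p = 1.6e-06). Pim1, a STAT3-induced kinase, lay at 0.193 to 0.273 in ischemia rats, against 0.1 to 0.119 in cisplatin rats, and at the floor in all normal rats, so its rise after ischemia was at least 2.40-fold. The list of 13 had 4 rises after ischemia and 0 calls after cisplatin, against 7.63% and 0.605% of all probes. The 0 calls are near that share and are not read as a result about this list. Of 12 adhesion molecules, 5 rose after ischemia, against 7.63% of all probes, and Pvr, the poliovirus receptor, rose in both arms. Pvr lay at 1.10, 1.52, 1.74 and 2.36 in ischemia rats, against 0.481, 0.795 and 0.711 in cisplatin rats, 0.187, 0.135 and 0.229 in normal rats 1 to 3 and 0.300 and 0.305 in normal rats 11 and 12. Its difference was 2.08 ± 0.32 (adjusted p = 0.00033).

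The AP-1 and other immediate early factors, which answer growth factors and stress within minutes, rose in both arms, with cisplatin rat 1 set apart. Of 21 measured genes, 19 rose after ischemia, 7 after cisplatin, and 3 had a higher change after ischemia. The list median per rat was 2.90, 2.60, 2.30 and 2.44 in ischemia rats, against 0.34, 1.76 and 2.30 in cisplatin rats. Cisplatin rats 2 and 3 came close to the ischemia rats and cisplatin rat 1 did not: the number of the 21 genes up by more than 1 log2 unit was 18, 18, 19 and 18 in ischemia rats and 4, 17 and 14 in cisplatin rats. Over all named genes the median change was 0.00, 0.02 and 0.04 in cisplatin rats 1 to 3.

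Fos, the founding AP-1 subunit, lay at 81.8, 75.6, 75.6 and 85.2 in ischemia rats, against 0.866, 12.5 and 8.02 in cisplatin rats. Normal rats 1 to 3 lay at 0.879, 1.31 and 1.20, and normal rats 11 and 12 at 0.459 and 0.224. Cisplatin rat 1 lay above normal rats 11 and 12, those of its own lot, and below normal rats 1 to 3. Cisplatin rats 2 and 3 lay between the normal and the ischemia rats. The rise was 6.16 ± 0.65 after ischemia (adjusted p = 1.6e-07) and 3.79 ± 0.78 after cisplatin (adjusted p = 0.020). The difference of 2.37 ± 1.02 was not called (adjusted p = 0.36) by the brightest of 3 Fos probes, while 1 of the 3 was called, so the probes disagree.

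Atf3, a stress-induced repressor of the same family, lay at 48.2, 45.3, 34.9 and 44.0 in ischemia rats, against 1.74, 13.5 and 14.6 in cisplatin rats. Normal rats lay at 2.03, 2.85 and 2.34 in the first lot and 1.60 and 1.57 in the second. Cisplatin rat 1 thus lay just above the normal rats of its own lot, the second, and below those of the first. Egr1 and Egr2, zinc finger factors of the same early wave, were also low in cisplatin rat 1. Egr1 lay at 8.70, 9.52, 9.75 and 5.97 in ischemia rats, against 0.192, 2.26 and 1.04 in cisplatin rats and 0.118 to 0.326 in all normal rats. Egr2 lay at 2.50, 1.98, 2.44 and 2.33 in ischemia rats, against 0.128, 2.27 and 1.33 in cisplatin rats and 0.1 to 0.164 in all normal rats. In cisplatin rat 2 the Egr2 level reached that of the ischemia rats. None of these 3 was called after cisplatin (adjusted p = 0.068 for Atf3, 0.090 for Egr1 and 0.077 for Egr2) or in the difference (adjusted p = 0.15, 0.27 and 0.65). Without cisplatin rat 1 the change after cisplatin was 3.15 for Atf3, 3.59 for Egr1 and 4.03 for Egr2, and all 3 were called. That rat was singled out by these same genes, so these calls follow from the choice of rat and are no support. Only cisplatin rats 2 and 3 were left in that fit. With each rat left out in turn, the change ran from 1.62 to 3.15 for Atf3, 1.81 to 3.59 for Egr1 and 1.96 to 4.03 for Egr2.

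Klf6, a Krüppel-like factor, lay at 21.0, 22.4, 18.2 and 15.7 in ischemia rats, against 1.58, 11.9 and 8.44 in cisplatin rats and 0.861 to 1.42 in all normal rats. It rose by 4.25 ± 0.40 after ischemia and 2.15 ± 0.48 after cisplatin (adjusted p = 0.033), and its difference was 2.11 ± 0.62 (adjusted p = 0.079). Ier2, an early response nuclear factor, lay at 10.3, 8.32, 11.8 and 11.1 in ischemia rats, against 0.959, 6.60 and 6.16 in cisplatin rats, 1.43, 1.15 and 1.59 in normal rats 1 to 3 and 0.841 and 0.756 in normal rats 11 and 12. Cisplatin rat 1 was again the low rat. Without it the differences between ischemia and cisplatin changes were 1.19 for Fos, 1.02 for Atf3, 1.21 for Egr1, 0.17 for Egr2, 1.22 for Klf6 and −0.09 for Ier2, none of them called.

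The 3 immediate early genes called in the difference were Klf4, Ccn1 and Fosl1. Klf4, a factor of epithelial differentiation, lay at 8.05, 6.11, 5.66 and 7.84 in ischemia rats, against 0.862, 1.85 and 1.52 in cisplatin rats, 0.582 to 0.740 in normal rats 1 to 3 and 0.744 and 0.719 in normal rats 11 and 12. Ischemia rats, cisplatin rats and normal rats did not overlap, and the difference was 2.48 ± 0.30 (adjusted p = 1.2e-05). Ccn1, a matrix protein and target of serum response factor and YAP, lay at 7.14, 5.80, 3.79 and 3.97 in ischemia rats and 0.384, 0.588 and 0.369 in cisplatin rats, against 1.14, 0.885 and 0.847 in normal rats 1 to 3 and 0.257 and 0.324 in normal rats 11 and 12. Its difference was 1.80 ± 0.42 (adjusted p = 0.018), and 3.52 (adjusted p = 3.1e-07) between ischemia and cisplatin levels compared directly. Fosl1, a Fos relative, had a difference of 1.48 ± 0.36 (adjusted p = 0.022). The normal rats bear on this list: its median was −0.59 in normal rats 11 and 12 relative to normal rats 1 to 3, with 6 of 21 genes called lower there, and compared directly 17 of the 21 genes were higher in ischemia than in cisplatin rats.

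**Figure D2:**
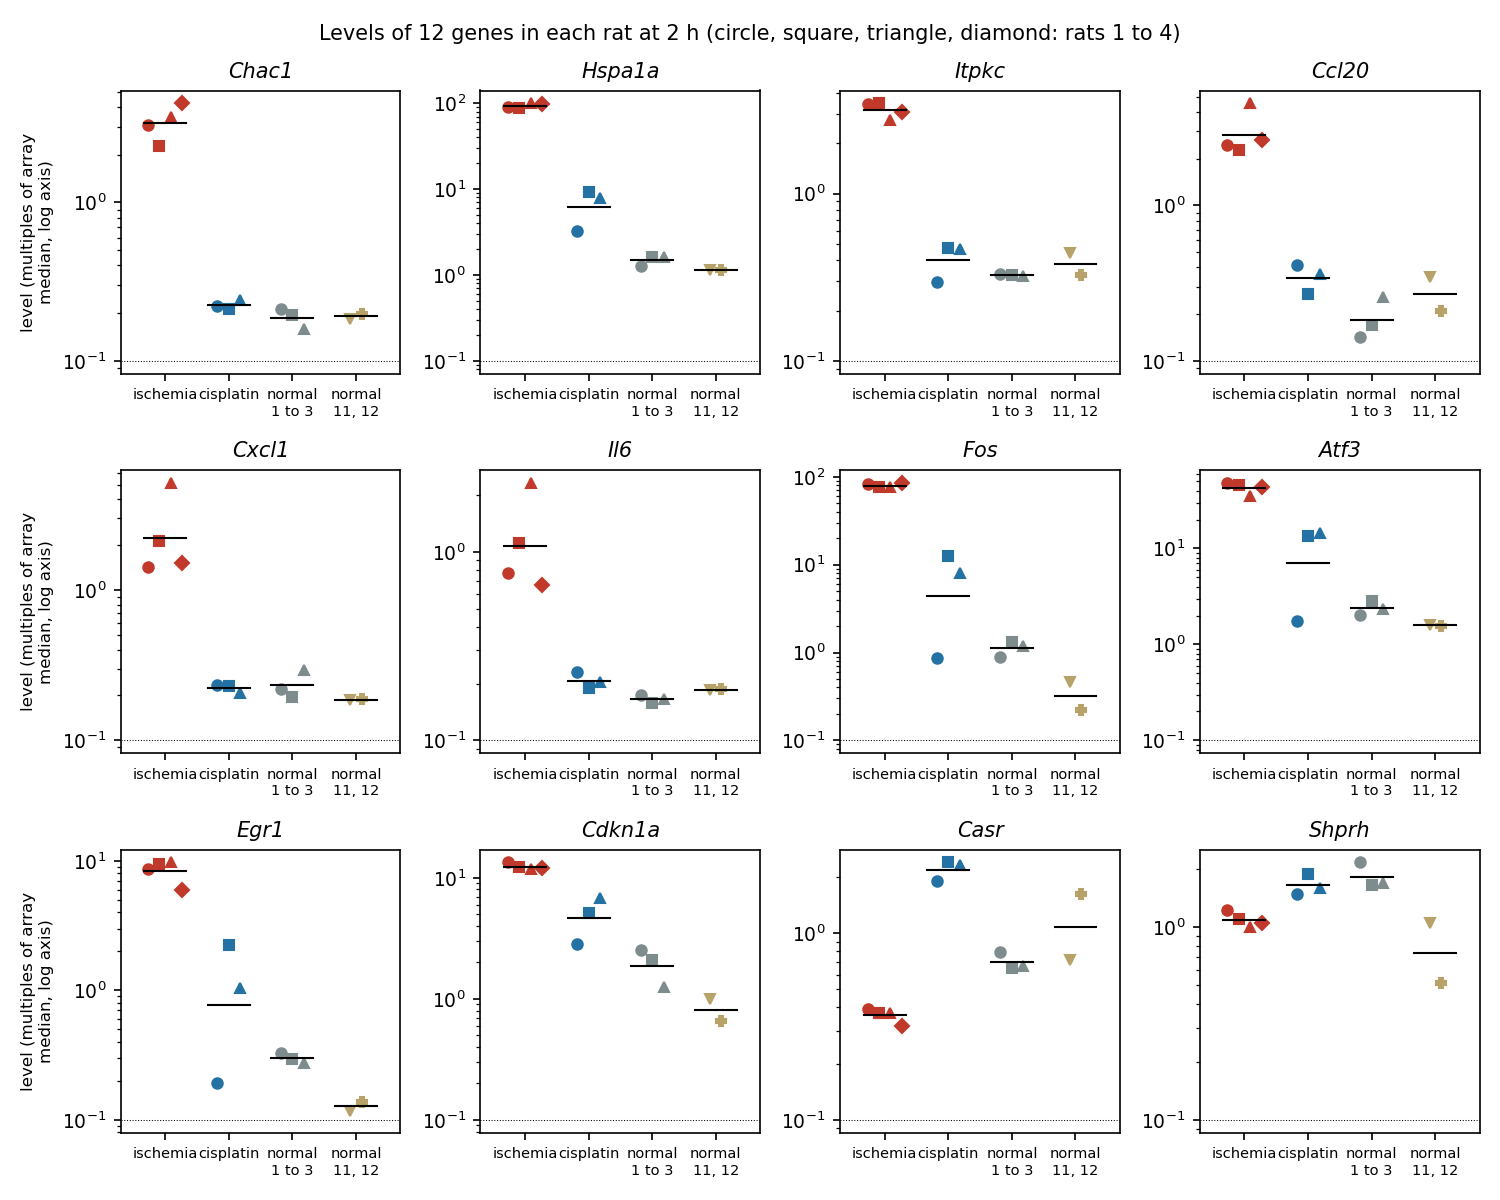
Level of 12 genes in each rat at 2 h, in multiples of the array median on a log axis, with ischemia rats, cisplatin rats, normal rats 1 to 3 and normal rats 11 and 12 from left to right. Bars are group means of the log2 levels and the dotted line is the floor of 0.1. For Atf3, cisplatin rat 1 (circle) lies between the normal rats of the lots, at 1.74, and cisplatin rats 2 and 3 lie higher, at 13.5 and 14.6.

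Brakes and second messengers of these pathways differed too, with 2 of 7 dual specificity phosphatases and Sprouty genes, Dusp5 and Dusp14, called in the difference. Dusp5, a nuclear phosphatase of ERK, lay at 8.34, 6.87, 4.12 and 11.7 in ischemia rats, against 0.763, 1.48 and 1.42 in cisplatin rats, 0.569 to 0.597 in normal rats 1 to 3 and 0.823 and 0.684 in normal rats 11 and 12. Its difference was 3.00 ± 0.45 (adjusted p = 0.00022). Dusp8, a phosphatase of JNK and p38, rose in both arms, by 2.43 ± 0.17 after ischemia and 1.58 ± 0.21 after cisplatin (adjusted p = 0.00016), and each cisplatin rat took part, with levels of 1.05, 1.21 and 0.892 against 0.373 and 0.327 in normal rats 11 and 12. Its difference of 0.85 ± 0.27 was not called (adjusted p = 0.11). Itpkc, a kinase of inositol trisphosphate, lay at 3.42, 3.47, 2.77 and 3.10 in ischemia rats, against 0.297, 0.472 and 0.469 in cisplatin rats. Normal rats lay at 0.329, 0.325 and 0.323 in the first lot and 0.439 and 0.327 in the second. Only the ischemia rats stood out in these 12, and the difference was 3.19 ± 0.25 (adjusted p = 1.0e-08).

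Genes of the epithelial surface and its injury response rose after ischemia. Of 13 tubular injury genes, 9 rose after ischemia, 1 after cisplatin and 2 had a higher change after ischemia, and the list median was 1.08 after ischemia, 0.32 after cisplatin and 0.92 in the difference. Plaur, the urokinase receptor, lay at 2.18, 2.47, 2.41 and 2.59 in ischemia rats, against 0.384, 0.518 and 0.470 in cisplatin rats and 0.213 to 0.311 in all normal rats. Its difference was 2.69 ± 0.30 (adjusted p = 7.5e-06) by its brightest probe and 0.35 by its other probe, so the probes disagree. Anxa1, a calcium-dependent membrane protein that limits inflammation, had a difference of 1.35 ± 0.28 (adjusted p = 0.0063). Tnfrsf12a, the receptor of the cytokine TWEAK, rose in both arms, by 3.48 ± 0.32 after ischemia and 2.07 ± 0.38 after cisplatin (adjusted p = 0.0063), with 3.12, 9.89 and 9.51 in cisplatin rats. Lcn2, the urinary injury marker NGAL, rose by 1.53 after ischemia (adjusted p = 1.2e-05), and its difference of 1.18 ± 0.34 was not called (adjusted p = 0.066). Havcr1, the later injury marker KIM-1, changed by 0.31 after ischemia and 0.04 after cisplatin and was called in neither arm.

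Cgn, cingulin of the tight junction, lay at 1.29, 1.29, 1.30 and 1.68 in ischemia rats, against 0.223, 0.287 and 0.254 in cisplatin rats and 0.143 to 0.178 in all normal rats. Its difference was 2.63 ± 0.27 (adjusted p = 9.9e-07). Csrp3, a LIM protein of muscle, lay at 1.10, 1.26, 1.51 and 1.16 in ischemia rats, against the floor of 0.1, 0.280 and 0.222 in cisplatin rats and the floor in all 5 normal rats. Its rise after ischemia was at least 12.5-fold. Its difference of 2.77 ± 0.44 (adjusted p = 0.00042) rests on values at the floor. Csrp3 and Csrp1 were the 2 of 12 actin and serum response genes with a higher change after ischemia, where 6 rose after ischemia and 0 were called after cisplatin. Tppp3, which bundles microtubules, and Fgl2, a membrane prothrombinase, had differences of 2.19 ± 0.40 (adjusted p = 0.0019) and 2.08 ± 0.26 (adjusted p = 2.3e-05). Glycam1, a mucin-like ligand of L-selectin, lay at 0.700, 1.24 and 7.36 in the 3 ischemia rats in which it was measured, against 0.186 to 0.238 in cisplatin rats and 0.164 to 0.207 in all normal rats. Ischemia rat 4 was the high one, and the difference was 3.34 ± 0.77 (adjusted p = 0.018, n = 3 ischemia rats in a limma fit over all rats).

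Hypoxia and fuel genes differed in a minority of members. Of 25 measured hypoxia and glycolysis genes, 6 rose and 1 fell after ischemia, 0 were called after cisplatin, and 4 had a higher change after ischemia, with list medians of 0.15, 0.08 and 0.06. Ankrd37, a target of the hypoxia-inducible factor, lay at 9.90, 7.58, 8.20 and 10.1 in ischemia rats, against 1.88, 3.41 and 3.05 in cisplatin rats, 3.26, 2.74 and 2.61 in normal rats 1 to 3 and 2.32 and 2.41 in normal rats 11 and 12. Cisplatin rats lay on both sides of their normal rats, and the difference was 1.45 ± 0.28 (adjusted p = 0.0033). Slc2a1, the basal glucose transporter, lay at 5.48, 5.89, 5.16 and 7.43 in ischemia rats and 2.32, 2.49 and 2.35 in cisplatin rats, against 1.77 to 2.51 in all normal rats, with a difference of 1.47 ± 0.31 (adjusted p = 0.0079).

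Hk2, an inducible hexokinase, lay at 0.238, 0.313, 0.361 and 0.276 in ischemia rats, against 0.107, 0.1 and 0.1 in cisplatin rats, and at the floor in normal rats 1 to 3, a rise after ischemia of at least 2.93-fold. P4ha1, a collagen prolyl hydroxylase, had a difference of 1.59 ± 0.33 (adjusted p = 0.0072). Ldha, lactate dehydrogenase, changed by 0.07 after ischemia and 0.09 after cisplatin, and Vegfa, the vascular growth factor, by 0.15 and −0.11. Ppargc1a, the coactivator that drives mitochondrial biogenesis, lay at 3.98, 3.33, 2.46 and 2.64 in ischemia rats, against 0.607 and 0.621 in the 2 cisplatin rats in which it was measured and 0.572 to 0.884 in all normal rats. Its difference was 1.90 ± 0.36 (adjusted p = 0.0033, n = 2 cisplatin rats in the limma fit). It was the 1 gene called in the difference among 21 of the fatty acid oxidation list.

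Among 24 vasoactive and coagulation genes, 7 rose and 3 fell after ischemia, 0 were called after cisplatin and 2 had a higher change after ischemia. The shares over all probes were 7.63%, 7.62%, 0.605% and 1.56%, so 0 and 2 calls are not read as results about this list. Edn1, the vasoconstrictor endothelin 1, lay at 1.59, 1.31, 1.54 and 1.46 in ischemia rats, against 0.317, 0.370 and 0.388 in cisplatin rats, 0.369, 0.329 and 0.199 in normal rats 1 to 3 and 0.303 and 0.284 in normal rats 11 and 12. The cisplatin rats lay within or just above the normal range, and the difference was 2.06 ± 0.27 (adjusted p = 4.0e-05). Procr, the endothelial protein C receptor, had a difference of 1.41 ± 0.34 (adjusted p = 0.021). Per2, of the circadian clock, was 1 of 9 clock genes with a higher change after ischemia, 1.29 ± 0.33 (adjusted p = 0.037). A single call in so short a list is not a result about the clock.

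Genes with a lower change after ischemia were fewer and their differences smaller. Casr, the calcium-sensing receptor of the thick ascending limb, led them. It lay at 0.391, 0.375, 0.375 and 0.320 in ischemia rats, against 1.89, 2.39 and 2.30 in cisplatin rats, 0.793, 0.654 and 0.664 in normal rats 1 to 3 and 0.719 and 1.61 in normal rats 11 and 12. Ischemia rats lay below and cisplatin rats above all normal rats, though normal rat 12 came near the cisplatin rats. The change was −0.95 ± 0.30 after ischemia (adjusted p = 0.030) and 1.02 ± 0.35 after cisplatin (adjusted p = 0.39), and the difference −1.97 ± 0.46 (adjusted p = 0.018). Without normal rat 11 or 12 in turn the estimate ran from −2.55 to −1.38, and the highest adjusted p over the rats left out was 0.28. Both Casr probes were called lower.

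Cnr1, the cannabinoid receptor 1, lay at 0.126, 0.1, 0.169 and 0.103 in ischemia rats, against 0.452, 1.34 and 1.07 in cisplatin rats, 0.366, 0.345 and 0.415 in normal rats 1 to 3 and 0.775 and 0.784 in normal rats 11 and 12. It fell after ischemia, by 1.62 on the log2 scale, and cisplatin rats lay on both sides of their normal rats. The difference was −1.77 ± 0.41 (adjusted p = 0.017), with 1 ischemia rat at the floor. Fst, follistatin, which binds activin, lay at 0.426 to 0.627 in ischemia rats, against 1.26, 2.51 and 2.59 in cisplatin rats, 0.675 to 0.987 in normal rats 1 to 3 and 1.15 and 1.59 in normal rats 11 and 12, a difference of −1.30 ± 0.31 (adjusted p = 0.021). It was the 1 gene called in the difference among 18 of growth factor signalling.

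Some of these genes are markers of white blood cells. Clec4a, a lectin of myeloid cells, lay at 0.109, 0.1, 0.128 and 0.1 in ischemia rats, against 0.20, 0.420 and 0.449 in cisplatin rats and 0.338 to 0.493 in all normal rats, a difference of −1.74 ± 0.46 (adjusted p = 0.042). The size of that value rests in part on the floor, where 2 of the 4 ischemia rats lay. Cd2, an adhesion molecule of T cells, lay at 0.133, 0.170, 0.165 and 0.186 in ischemia rats, against 0.281, 0.326 and 0.403 in cisplatin rats and 0.264 to 0.538 in all normal rats, a difference of −1.63 ± 0.42 (adjusted p = 0.038). Lck, a kinase of T cells, had a difference of −1.10 ± 0.27 (adjusted p = 0.027). In all 3 the ischemia rats lay below every other rat. With each rat left out in turn, the difference ran from −2.11 to −1.53 for Clec4a and −1.78 to −1.42 for Cd2. Neither of these calls held in every such fit.

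The leukocyte list was mixed: of 23 measured genes of 33 listed, 2 rose and 4 fell after ischemia, 0 were called after cisplatin and 1, Cd53, was called lower in the difference, at −0.82 ± 0.21 (adjusted p = 0.032). The Cd53 difference ran from −0.98 to −0.72 with each rat left out in turn, and its call did not hold in every such fit. The list median was −0.28 after ischemia, 0.19 after cisplatin and −0.35 in the difference, against −0.08 over all probes. Its summed level lay between 73.9 and 85.9 in ischemia rats, 66.9 and 76.4 in cisplatin rats, 74.0 and 94.9 in normal rats 1 to 3 and 60.2 and 61.7 in normal rats 11 and 12. Cd4, Cd8a and Cd8b, which define T cell classes, were at the floor in all 4 ischemia rats and at no more than 0.190 in any other rat. S100a9, a neutrophil protein, went the other way, at 2.31, 2.88, 2.80 and 2.40 in ischemia rats, against 1.40, 0.230 and 0.794 in cisplatin rats and 0.188 to 0.290 in all normal rats. Its difference of 2.06 ± 0.66 was not called (adjusted p = 0.12), and without cisplatin rat 1, the highest of its group, it was 2.63. In such bulk tissue, fewer cells of a type and less RNA per cell cannot be told apart, and the part of cell make-up in the results was not tested.

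Further genes with lower changes after ischemia had no common role. Adh1c, an alcohol dehydrogenase, lay at 3.25, 3.96, 5.74 and 3.20 in ischemia rats, against 9.16, 6.82 and 6.02 in cisplatin rats, 10.8, 6.79 and 7.10 in normal rats 1 to 3 and 5.29 and 4.69 in normal rats 11 and 12, a difference of −1.57 ± 0.42 (adjusted p = 0.042) that 1 of its 2 probes called. Purg, a nucleic acid binding protein, had the tightest of these, −1.16 ± 0.19 (adjusted p = 0.00060), with 0.313 to 0.398 in ischemia rats, against 0.617 to 0.752 in cisplatin rats, 0.948 to 1.09 in normal rats 1 to 3 and 0.883 and 0.844 in normal rats 11 and 12. Fibin, a secreted protein of development, and Doc2g, a C2 domain protein, had differences of −1.84 ± 0.48 (adjusted p = 0.038) and −1.32 ± 0.31 (adjusted p = 0.018). Entrep3 had a difference of −1.13 ± 0.27 (adjusted p = 0.018), Tmem204, an endothelial membrane protein, one of −1.12 ± 0.22 (adjusted p = 0.0038), and Rmi1, of the complex that dissolves recombination intermediates, one of −1.14 ± 0.28 (adjusted p = 0.022). Polb, the base excision repair polymerase, was 1 of 22 DNA repair genes called in the difference, at −0.58 ± 0.15 (adjusted p = 0.038). With 2.27% of all probes called there, a single call is not a result about DNA repair genes.

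Cisplatin raised a small set of genes of which most also rose after ischemia. Of 15 measured p53 targets, 3 rose and 1 fell after cisplatin, and 4 rose and 1 fell after ischemia. In the difference 0 were called, where the background was 2.27%. Compared directly, 5 were called higher and 1 lower in ischemia than in cisplatin rats, where lot and insult cannot be told apart. Cdkn1a, the cell cycle inhibitor p21, lay at 13.4, 12.2, 11.8 and 12.0 in ischemia rats, against 2.82, 5.15 and 6.85 in cisplatin rats, 2.51, 2.08 and 1.25 in normal rats 1 to 3 and 0.991 and 0.660 in normal rats 11 and 12. It rose by 2.73 ± 0.33 after ischemia and 2.52 ± 0.39 after cisplatin (adjusted p = 0.0013). The difference was 0.21 with a 95% interval of −0.84 to 1.25. Directly compared, its levels were 1.41 higher in ischemia rats on the log2 scale (adjusted p = 0.0067), so the value depends on the normal rats used. Btg2, an antiproliferative p53 target, lay at 2.31, 16.2 and 16.4 in cisplatin rats, with cisplatin rat 1 low. It lay at 1.59 and 1.23 in normal rats 11 and 12 and 3.15 to 4.05 in normal rats 1 to 3. Its difference of 0.71 was not called (adjusted p = 0.84), while the directly compared levels differed by 2.06 (adjusted p = 0.0032). Sesn1, sestrin 1, fell in both arms, by 0.78 after ischemia and by 0.60 after cisplatin (adjusted p = 0.042). Ccng1 and Bax, further p53 targets, were called in neither arm.

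Several genes that rose after cisplatin differed between the normal rats of the lots. Jun, the AP-1 partner of Fos, lay at 14.6, 14.5, 16.5 and 12.8 in ischemia rats, against 2.81, 13.2 and 13.2 in cisplatin rats, 4.25, 3.74 and 4.64 in normal rats 1 to 3 and 1.62 and 1.54 in normal rats 11 and 12. Cisplatin rat 1 lay above normal rats 11 and 12 and below normal rats 1 to 3. Its difference of −0.52 ± 0.54 was not called (adjusted p = 0.85), while the directly compared levels differed by 0.88 (adjusted p = 0.12). Without cisplatin rat 1, which was singled out by the immediate early genes, the difference of changes was −1.27. Slc25a25, a mitochondrial carrier of ATP and magnesium, lay at 3.27, 2.64 and 2.87 in cisplatin rats, against 0.568 and 0.583 in normal rats 11 and 12 but 2.15, 2.74 and 2.90 in normal rats 1 to 3. Against the normal rats of its lot it rose by 2.34 ± 0.29 (adjusted p = 0.00011), and rats of the same lot with a 40 min sham operation, studied 8 h later, lay 2.98 above those normal rats.

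Zfp36, which destabilises cytokine mRNAs, Cebpd, a factor of the acute phase response, Gadd45a, a growth arrest gene, and Per1, of the clock, rose by 2.44 ± 0.36, 1.96 ± 0.32, 1.72 ± 0.27 and 1.37 ± 0.25 after cisplatin. In normal rats 11 and 12 they lay at −1.44, −1.25, −0.99 and −1.33 relative to normal rats 1 to 3, and the 8 h sham rats lay at 1.77, 2.25, 1.03 and 1.62 relative to normal rats 11 and 12. By contrast, normal rats 11 and 12 were at −0.11 for Dusp8 and 0.18 for Klf10, a TGF-beta inducible factor, which rose by 1.43 ± 0.18 after cisplatin (adjusted p = 0.00011). Low levels in normal rats 11 and 12 and high levels in normal rats 1 to 3 cannot be told apart here. Of 13 glucocorticoid responsive genes, 3 rose after cisplatin, 5 after ischemia and 0 were called in the difference, against 0.561%, 7.63% and 2.27% of all probes. The list median per cisplatin rat was 1.05, 0.22 and 0.41, here with cisplatin rat 1 on top. Fkbp5, a classic glucocorticoid target, lay at 3.54, 0.919 and 0.721 in cisplatin rats, against 0.496 and 0.990 in normal rats 11 and 12.

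**Figure D3:**
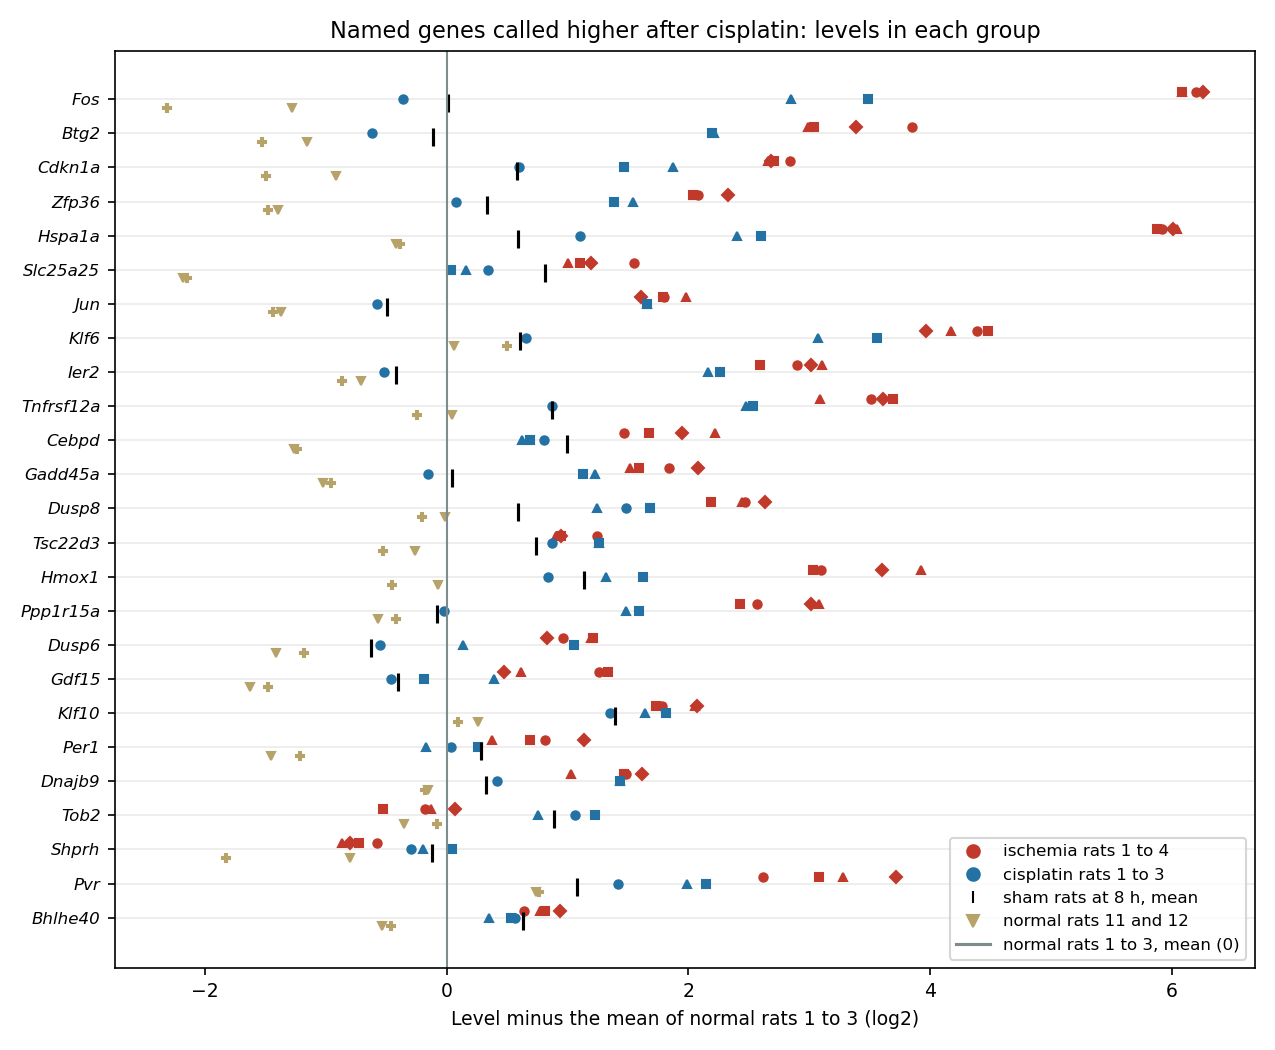
Level of 25 named genes that rose after cisplatin, as log2 distance from the mean of normal rats 1 to 3 (vertical line at 0). Red and blue symbols are single ischemia and cisplatin rats, the black tick is the mean of the sham rats at 8 h, and tan symbols are normal rats 11 and 12; for Slc25a25 normal rats 11 and 12 lie far left, and for Fos, Btg2 and Ier2 cisplatin rat 1 (circle) lies left of cisplatin rats 2 and 3.

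By named genes, 3 rose after cisplatin and had a lower change after ischemia, of which Tob2 and Shprh are given here. Tob2, an antiproliferative regulator of mRNA deadenylation, lay at 0.512, 0.404, 0.531 and 0.608 in ischemia rats, against 1.21, 1.36 and 0.983 in cisplatin rats, 0.679, 0.540 and 0.534 in normal rats 1 to 3 and 0.455 and 0.548 in normal rats 11 and 12. Cisplatin rats lay above all others, and the normal rats of both lots overlapped. It rose by 1.23 ± 0.19 after cisplatin (adjusted p = 0.0013), and the difference was −1.43 ± 0.25 (adjusted p = 0.0013), with a direct difference of −1.21 (adjusted p = 5.6e-06). In 8 h sham rats Tob2 lay 1.10 above normal rats 11 and 12. Shprh, a ubiquitin ligase of DNA damage tolerance, was the 1 named gene called in opposite directions, −0.74 ± 0.18 after ischemia and 1.17 ± 0.21 after cisplatin. It lay at 1.23, 1.10, 1.00 and 1.05 in ischemia rats, against 1.49, 1.88 and 1.60 in cisplatin rats, 2.17, 1.66 and 1.70 in normal rats 1 to 3 and 1.05 and 0.515 in normal rats 11 and 12. The difference was −1.91 ± 0.28 (adjusted p = 0.00019), while the directly compared levels differed by −0.59 (adjusted p = 0.13). Ntf3, a neurotrophin, and Zfp385b, a zinc finger gene, fell after cisplatin, by 1.26 and by 0.66 on the log2 scale (adjusted p = 0.042 and 0.049).

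Many lists chosen for the tissue and the drug held no called member in the difference, where 2.27% of all probes were called, so a count of 0 in lists of this size is near the background and is not a result about them. Of 33 proximal tubule genes, 1 fell after ischemia, 0 were called after cisplatin and 0 in the difference, with list medians of −0.23, −0.09 and −0.17. Of 14 genes of cisplatin and organic cation transport, 0 were called in any of the 3 comparisons, with medians of −0.11, −0.05 and −0.07. Of 14 metallothionein and metal transport genes, 1 fell after ischemia, and Mt1, metallothionein 1, lay at 108, 70.7 and 87.0 in cisplatin rats, against 62.2 and 48.4 in normal rats 11 and 12 and 77.2 to 127 in normal rats 1 to 3. Of 19 conjugation genes, 1 fell after ischemia, and of 15 apoptosis regulators, 3 rose and 1 fell after ischemia and 1 rose after cisplatin. Lists of NF-kB components (7 genes), EGF receptor ligands (8), ribosome biogenesis (12) and the cell cycle (18) also had 0 calls in the difference.

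**Figure D4:**
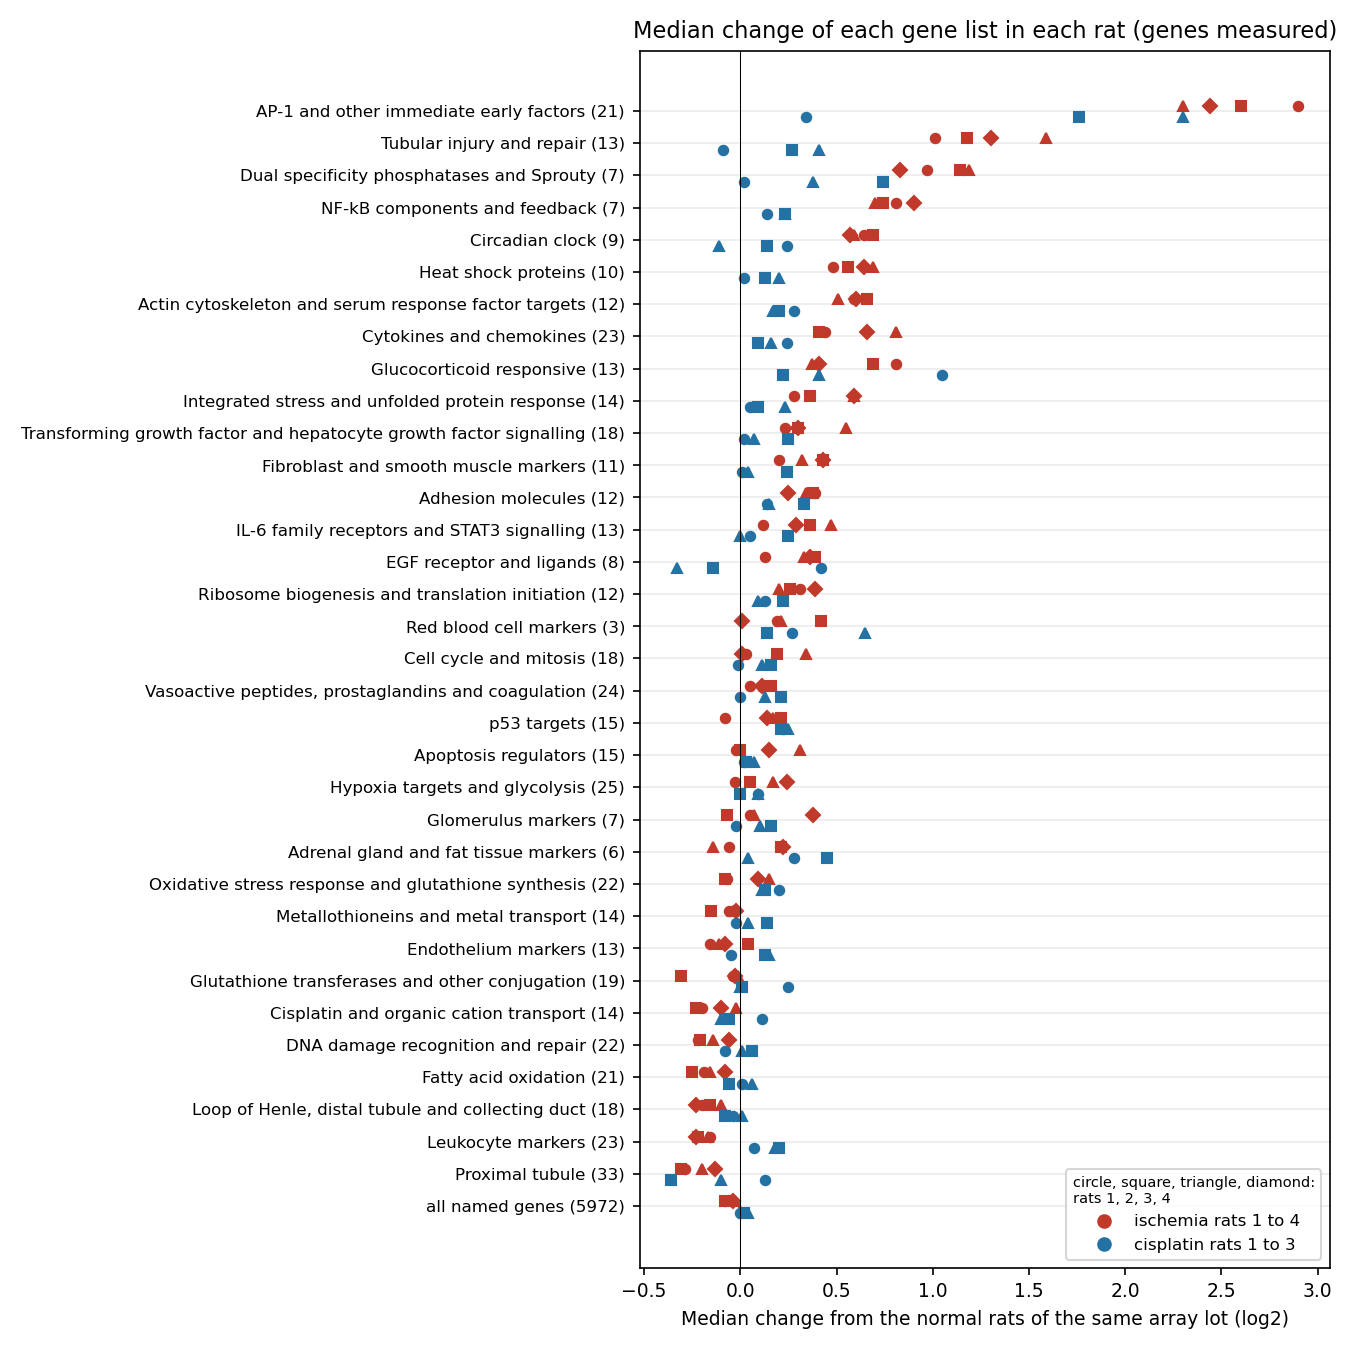
Median change of each gene list in each rat (horizontal axis, log2, from the normal rats of the same lot), with the number of genes measured in brackets. Red symbols are ischemia rats and blue symbols below them cisplatin rats; in the immediate early list cisplatin rat 1 lies at 0.34 and cisplatin rats 2 and 3 at 1.76 and 2.30, against 2.30 to 2.90 in ischemia rats.

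Rats given ischemia with αMSH, a peptide known to dampen inflammation, give the same contrast in other ischemic animals. They share the cisplatin and normal rats with the ischemia comparison, so the values stand side by side with no overlap given. Set against cisplatin, 180 probes were called (1.98%), 141 higher (1.55%) and 39 lower (0.429%). For Chac1 the difference was 3.58 with αMSH and 3.85 without it, for Itpkc 3.40 and 3.19, for Cxcl1 3.52 and 2.99, for Il6 3.35 and 2.54, and for Edn1 2.43 and 2.06. For Casr it was −1.36 (adjusted p = 0.18) with αMSH and −1.97 without it, and for Fst −0.78 (adjusted p = 0.30) and −1.30. Whether αMSH altered these differences was not tested here.

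Mercuric chloride, another nephrotoxin, given under the skin at 4 mg/kg and studied at 2 h, was measured in the first lot against the same normal rats 1 to 3 as ischemia. It changed 721 probes (7.94%), 289 higher (3.18%) and 432 lower (4.76%), but 270 higher and 190 lower without normal rat 1. Several genes that parted ischemia from cisplatin rose after it: Chac1 by 5.91 ± 0.19, Hmox1 by 6.54 ± 0.29, Hspa1a by 5.04 ± 0.35, Srxn1 by 3.83 ± 0.29 and Dusp5 by 1.88 ± 0.31. Others were not called there, among them Itpkc at 0.11 ± 0.17, Klf4 at −0.12 ± 0.21, Edn1 at −0.30 ± 0.19, Cgn at 0.38 ± 0.18, Plaur at 0.22 ± 0.21 and Il6 at −0.22 ± 0.38. Ischemia was not tested against mercuric chloride here.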

How the data were processed

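The authors deposited 1 value per probe and array for 9911 probes. Its log2 is a whole number at 0.0001 precision for 99.9% of values and behaves as a linear intensity, so the deposited value is read as 2 to the power of an intensity, from the values themselves. Labelling followed the CodeLink standard protocol per the labels' protocols, while the sources used here do not name the scanner software, background correction or scaling. Deposited values of 0.5 (0.970%) were treated as missing. Sham rat 3 was out of line with the probe names and was moved by 2 lines, after which it correlated at 0.984 with the median over all other arrays, against 0.0652 as deposited.

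Intensities were divided by the array median, floored at 0.1 and put on the log2 scale, and duplicate arrays of a rat were averaged. Probes measured in at least 2 rats of each of the 4 groups and in 2/3 of all 31 rats, and above the floor in at least 3 of the 12 rats, were tested (9084). limma 3.58.1 (R 4.3.3, statmod 1.5.0) fitted all groups together with 21 residual degrees of freedom and 6 comparisons, each adjusted by Benjamini-Hochberg. On simulated data for the difference of changes the fit was tested over all 9084 probes. Array lots were inferred from missing probes. On the arrays of the 12 rats compared, 70 to 172 probes were missing and 4.34% to 12.2% of values were at the floor. The number of arrays limits the precision.

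Of the probes, 7229 had 1 gene symbol, 21 several and 2661 none, and a gene was read by its brightest probe. Named genes were the up to 15 most positive and negative differences without overlap between rats, up to 8 rises and falls per arm, up to 8 genes called in both arms, and list members. The members and lists were chosen with earlier results of these data known. Replicate numbers do not pair the rats in the labels, and residuals of ischemia and cisplatin rats of equal number correlated at −0.08, 0.01 and 0.03 for numbers 1 to 3, and those of ischemia and normal rats at −0.04, 0.33 and 0.24, so not every pair passed 0.1 and the numbers were not taken as pairs. Promoters came from RefSeq, assembly GRCr8. Alternatives changed the lot term, floor, normalization, filter, rats fitted, variance prior, duplicates, block, column order and each rat.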

Additional observations from a re-analysis of the deposited data

Results flagged for a closer look

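Ischemia rat 4 stood apart from the other 3 ischemia rats for Cgn, at 1.68 array medians against 1.29 to 1.30, and for Zfp36, at 23.7 against 19.4 to 20.0. These were 2 of 48 genes examined, and chance alone sets apart 1 sample in about 1 of 20 groups.

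Opposite directions were sought only among genes ranked by the largest called differences of changes without overlap between rats. That choice favours opposite directions, and their share over all probes is not given here, so the number found is no separate result. For 8 of the ranked genes every ischemia rat lay below, and every cisplatin rat above, the mean of its normal rats. In each, limma had called the difference of changes. It was −1.91 for Shprh (adjusted p = 0.00019), −1.97 for Casr (adjusted p = 0.018), −1.84 for Fibin (adjusted p = 0.038) and −1.63 for Cd2 (adjusted p = 0.038). It was −1.57 for Adh1c (adjusted p = 0.042), −1.32 for Doc2g (adjusted p = 0.018), −1.14 for Rmi1 (adjusted p = 0.022) and −1.1 for Lck (adjusted p = 0.027). Only Shprh was called in both arms.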

How the results depend on the processing

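Without the lot term, 2394 probes were called in the difference, 1039 higher and 1355 lower (43.4% higher, against 68.9% with it), of which 196 were shared. Cisplatin then had 508 calls (61.8% higher, against 92.7%) and ischemia with αMSH against cisplatin 2278 (39.9% higher, against 78.3%). Of the listed and ranked genes, 13 that were not called with the lot term turned sign and were called without it: Car2 0.40, Cebpd 1.12, Cox17 0.67, Dusp7 0.83, Emcn 0.71, Gdf15 1.01, Hadhb 0.49, Ncl 0.56, Pdia6 −0.50, Socs3 −1.07, Sox4 −1.29, Tgfb1 −0.52 and Zfp36 1.12. By construction, the value without the lot term is the difference of changes minus the difference of normal rats 11 and 12 from normal rats 1 to 3. For Cebpd it was −0.13 with the lot term and 1.12 without it. The signs thus turned through the difference between the normal groups, in which lot and rat cannot be told apart. With the 12 rats alone, cisplatin had 21 calls, from fewer samples. With sham rat 3 as deposited, calls numbered 34 for the difference, 5 for cisplatin, 299 for ischemia, 61 for mercuric chloride, 35 for αMSH ischemia against cisplatin and 55 between the normal groups. Quantile normalization gave 265 calls in the difference and 63 for cisplatin (82.5% higher).

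Leaving out each rat gave 95 to 298 calls for the difference, 13 to 139 for cisplatin, 992 to 1403 for ischemia, 88 to 245 for αMSH ischemia against cisplatin, 460 to 795 for mercuric chloride and 185 to 627 between the normal groups. Cisplatin had 139 calls without cisplatin rat 1, 13 without rat 2, 28 without rat 3, 34 without normal rat 11 and 13 without normal rat 12. Without normal rat 11 or 12, αMSH ischemia against cisplatin had 101 and 88 calls and the normal groups 237 and 185, and mercuric chloride had 460 (270 higher, 190 lower) without normal rat 1 and 461 (173 higher, 288 lower) without normal rat 2. Without normal rat 11 or 12, 1 rat remained in that group and was assumed to vary like the others. The replicate number as a random block (correlation −0.02) gave 206 calls for the difference, 54 for cisplatin and 1332 for ischemia. No lot-free value exists between the normal groups, and the 12 rats give none for αMSH or mercuric chloride.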
